A study of Mus musculus with 21 samples.

Results

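The 10 genes described here were grouped as matricellular and bulge matrix genes. They were taken by symbol from all 3 deposited tables, which share 43776 gene names. The genes are Postn, Tnc, Npnt, Sparc, Fn1, Aspn, Mgp, Hmcn1, Gas6 and Gsn, and each symbol had 1 locus in each table. The data come from 21 mouse keratinocyte libraries of polyadenylated RNA in 7 groups of 3. Hair follicle stem cells (HFSCs) purified by FACS, total epidermal cells and cultured HFSCs (titled 3C-HFSCs) make up the first 3 groups, all wild type. The other 4 are from 3C cultures, in which total epidermal cells were kept for 10 to 14 days: the fraction positive for CD34 and alpha-6 integrin, the fraction negative for CD34 and positive for alpha-6 integrin, and cultures given cyclopamine or dorsomorphin for 48 h. CD34 and alpha-6 integrin mark the surface of bulge stem cells. Cyclopamine blocks the Hedgehog pathway at Smoothened, and dorsomorphin blocks BMP signalling at its type I receptors and also AMP-activated protein kinase. Strain, age, sex and inhibitor dose are not given in the labels, and neither is the genotype of the last 4 groups.

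The bulge is the part of the hair follicle where its stem cells rest, and its basal cells secrete a matrix of their own. Matricellular proteins are secreted matrix proteins that bind cell receptors, growth factors and structural fibres more than they carry load. Npnt, nephronectin, is known as a bulge basement membrane protein that binds the integrin made of Itga8 and Itgb1 and anchors the arrector pili muscle. Postn (periostin) and Tnc (tenascin-C) are matricellular proteins of growing and wounded tissue, Sparc is a collagen-binding glycoprotein, and Fn1 is fibronectin. Hmcn1 (hemicentin 1) is a very large protein of basement membranes. Aspn (asporin) is a small leucine-rich proteoglycan, Mgp (matrix Gla protein) inhibits calcification, Gas6 is the ligand of the receptor kinases Tyro3, Axl and Mertk, and Gsn is the actin-severing protein gelsolin, which also has a secreted form.

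Each table gives 1 FPKM (fragments per kilobase of transcript, scaled to sequencing depth) for a gene and population and none per library, so no spread between replicates stands beside any level, and every FPKM printed is from the authors' deposited tables. Higher and lower below mean an adjusted p under 0.05 as the authors' deposited table gives it. Nothing in the labels ties the libraries of a group to different animals or cultures, so these p-values may cover technical spread only, and read depth was unknown. The first table names its populations CD34a6, HFSC and bulk. Bulk was taken to be total epidermal cells. Which of the other columns was freshly sorted and which was cultured is not in the labels, so HFSC below is a column name. The name does not say that those cells were freshly sorted. Cd34 was at 327 FPKM in CD34a6, 8.70 in HFSC and 10.6 in bulk, and the bulge keratin gene Krt15 at 9923, 37.9 and 4791. Lhx2 was at 270, 2.06 and 7.91 FPKM, Sox9 at 180, 55.2 and 20.4, and Itga6, for alpha-6 integrin, at 155, 306 and 72.4. In the fraction table the population read as CD34+ is named 3C_HFSC, close to the title of the cultured HFSCs. It was read as CD34+ because it is paired with CD34neg, and had Cd34 at 38.7 FPKM against 2.26 in the CD34neg fraction. Krt14 and Krt5, the keratins of basal keratinocytes, were at 1257 FPKM or more in all 7 populations. Krt10, a keratin of differentiating epidermis, was at 25128 FPKM in bulk, 874 in CD34a6 and 41.5 in HFSC, and Krt1, its partner, at 3056, 125 and 10.7. Krt16, a keratin of wounded and cultured epidermis, was at 18.9 FPKM in bulk, 0.973 in CD34a6 and 1058 in HFSC, and Krt6a at 42.3, 77.0 and 1913. All pairs of these 4 genes passed. In the fractions Krt1 (0.409 against 2.83 FPKM) and Krt16 (94.9 against 303) were lower in CD34+ cells and Krt15 was higher (62.4 against 10.7), and with dorsomorphin Krt1 was higher (12.4 against 6.52) and Krt15 lower (3.61 against 20.6). The part of these differences between populations in the results below was not tested. Levels are compared within a table only, since the tables were normalised separately.

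In CD34a6 cells, 7 of the 10 genes were higher than in bulk, 1 was lower and 2 did not pass. In that comparison 46.3% of all 14441 tested loci were called, 22% as higher and 24.3% as lower. Of the called loci 47.4% were higher, and 59.1% when FPKM was first divided by its sum. The 10 genes were chosen with earlier results of these data known. An excess of called genes over all loci, here or below, may follow in part from that choice. Npnt, Tnc, Hmcn1 and Postn had the largest differences. Npnt was at 455 FPKM in CD34a6, 3.29 in HFSC and 16.2 in bulk, and its level in CD34a6 was 28.1-fold that in bulk. Npnt ranked 8 from the top of all tested loci on the log2(FPKM + 1) scale. Hmcn1 stood at 178 FPKM in CD34a6, 1.11 in HFSC and 7.80 in bulk, 22.8-fold higher in CD34a6 than in bulk. Sparc was at 234 FPKM in CD34a6, 3.49 in HFSC and 42.5 in bulk. These 3 genes shared 1 order, with CD34a6 above bulk and bulk above HFSC, and all 3 pairs passed for each (adjusted p = 0.000212 in the authors' deposited table, the smallest it holds).

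Postn and Tnc followed another order, with HFSC above bulk. Postn was at 627 FPKM in CD34a6, 55.7 in HFSC and 31.3 in bulk, which made it the most abundant of the 10 in CD34a6, above 99.7% of the loci detected there. Its HFSC level was 1.78-fold that of bulk (adjusted p = 0.0142 in the authors' deposited table). Tnc was at 136 FPKM in CD34a6, 16.4 in HFSC and 5.10 in bulk, with HFSC 3.21-fold above bulk and CD34a6 26.8-fold above it. Every pair passed for both genes, so the 3 populations were told apart by each.

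**Figure D1:**
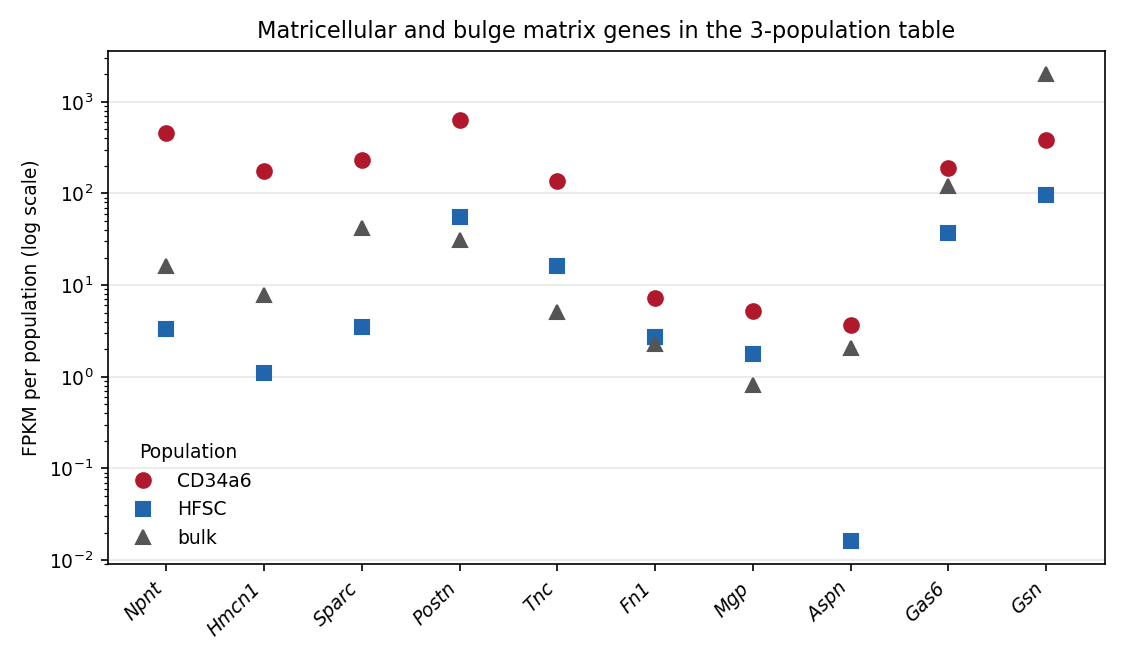
Level of each of the 10 genes in the 3-population table, as FPKM on a log axis, with 1 point per population (circles CD34a6, squares HFSC, triangles bulk) and no error bar because the table holds 1 value per population. Npnt, Hmcn1 and Sparc run from CD34a6 through bulk to HFSC, Postn and Tnc from CD34a6 through HFSC to bulk, and Gsn is highest in bulk at 2006 FPKM.

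Fn1, Mgp and Aspn were low in all 3 populations. Fn1 was at 7.25 FPKM in CD34a6, 2.70 in HFSC and 2.27 in bulk, and CD34a6 exceeded both others while HFSC and bulk did not pass (adjusted p = 0.442 in the authors' deposited table). Mgp showed the same order at 5.17, 1.75 and 0.822 FPKM, and its difference between HFSC and bulk did not pass (adjusted p = 0.124 in the authors' deposited table). Aspn was at 3.71 FPKM in CD34a6, 0.0161 in HFSC and 2.06 in bulk. None of its 3 pairs passed, with adjusted p-values of 0.139, 0.275 and 0.279 in the authors' deposited table, although the ratio of CD34a6 to HFSC was 230-fold. A ratio to a level of 0.0161 FPKM rests on very few reads.

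Gas6 and Gsn were the abundant genes of bulk. Gas6 was at 188 FPKM in CD34a6, 37.5 in HFSC and 121 in bulk. CD34a6 and bulk did not pass (1.56-fold, adjusted p = 0.0626 in the authors' deposited table), and HFSC was lower than either. Gsn, at 384 FPKM in CD34a6 and 96.8 in HFSC, was at 2006 in bulk, the highest level of any of the 10 genes in any population of that table. All 3 Gsn pairs passed, with bulk 5.22-fold above CD34a6 and 20.7-fold above HFSC. The FPKM of all loci summed to 2.25 times as much in bulk as in CD34a6 and 1.90 times as much as in HFSC, so dividing FPKM by its sum raises each CD34a6 or HFSC level against bulk by those factors. On the log2 scale that division moved Gsn in CD34a6 against bulk from -2.38 to -1.21, Gas6 from 0.63 to 1.804 and Npnt from 4.73 to 5.91. For HFSC against bulk it moved Postn from 0.81 to 1.73 and Gas6 from -1.66 to -0.76.

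Set against bulk, the HFSC population had 2 of the 10 genes higher (Postn and Tnc), 5 lower (Npnt, Sparc, Hmcn1, Gas6 and Gsn) and 3 not passing, where 43.7% of 14035 tested loci were called, 19% as higher and 24.7% as lower. Set against CD34a6, HFSC had 9 lower and 0 higher, with Aspn alone not passing, where 54.2% of 13962 tested loci were called, 25.2% as higher and 29% as lower. The fall was 160-fold for Hmcn1, 138-fold for Npnt and 67.2-fold for Sparc. It was 11.3-fold for Postn, 8.33-fold for Tnc, 5.03-fold for Gas6 and 3.97-fold for Gsn. Mgp and Fn1 differed least of the 9, by 2.94-fold and 2.69-fold. The 3 pairs of this table share their libraries, so these counts are not independent of each other. Summed over the 10 genes the level was 2220 FPKM in CD34a6, 219 in HFSC and 2235 in bulk, and in bulk most of that sum was Gsn. As a share of the FPKM of all loci this was 0.546% in CD34a6, 0.0453% in HFSC and 0.244% in bulk.

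The promoters of the 5 genes with the largest log2(FPKM + 1) differences between HFSC and CD34a6 (Npnt, Hmcn1, Sparc, Postn and Tnc) are printed here because these genes were high together in CD34a6. With a pseudocount of 0.01 the uncalled Aspn difference, -7.15, was larger than that of Npnt, -7.11. The sequences are from RefSeq on GRCm38.p6, whose promoter table held 8 of the 10 symbols, and give the 250 bases before the transcript start of the RefSeq entry (Npnt, Postn and Tnc have 2 entries, of which 1 was used), which is the end of the annotated gene or of the deposited locus, or for Postn lies 2 bases outside it. They lie at chr3:132950292-132950541 (minus strand), chr1:150993436-150993685 (minus), chr11:55420081-55420330 (minus), chr3:54360857-54361106 (plus) and chr4:64047016-64047265 (minus). Each reads 5′ to 3′ on the strand of the gene, and capitals mark matches to any of 7 motifs, searched on both strands.
Npnt: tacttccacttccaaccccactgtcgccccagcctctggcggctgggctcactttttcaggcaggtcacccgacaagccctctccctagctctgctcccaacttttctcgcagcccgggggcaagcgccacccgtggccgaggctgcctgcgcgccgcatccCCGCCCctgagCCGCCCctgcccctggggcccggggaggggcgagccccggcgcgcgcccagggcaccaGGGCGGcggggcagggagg
Hmcn1: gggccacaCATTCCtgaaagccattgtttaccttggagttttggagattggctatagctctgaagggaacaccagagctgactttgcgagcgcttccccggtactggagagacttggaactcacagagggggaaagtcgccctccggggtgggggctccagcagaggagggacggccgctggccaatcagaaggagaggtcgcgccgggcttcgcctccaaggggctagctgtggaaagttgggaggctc
Sparc: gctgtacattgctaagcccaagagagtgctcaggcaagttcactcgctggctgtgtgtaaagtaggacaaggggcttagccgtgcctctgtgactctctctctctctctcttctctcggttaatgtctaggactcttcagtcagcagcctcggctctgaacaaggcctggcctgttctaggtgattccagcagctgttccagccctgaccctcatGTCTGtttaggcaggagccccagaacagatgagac
Postn: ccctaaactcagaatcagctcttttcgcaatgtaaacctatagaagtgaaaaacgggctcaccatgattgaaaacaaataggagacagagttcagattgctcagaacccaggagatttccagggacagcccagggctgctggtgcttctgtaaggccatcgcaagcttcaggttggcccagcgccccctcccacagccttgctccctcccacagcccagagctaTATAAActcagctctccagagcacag
Tnc: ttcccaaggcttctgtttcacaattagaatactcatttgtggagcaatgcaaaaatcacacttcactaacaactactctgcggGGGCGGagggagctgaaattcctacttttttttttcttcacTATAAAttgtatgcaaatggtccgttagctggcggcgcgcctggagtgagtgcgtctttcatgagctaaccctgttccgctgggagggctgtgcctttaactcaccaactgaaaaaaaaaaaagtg

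The motifs were the TATA box (TATAAA), the GC box (GGGCGG), a SMAD box (CAGAC), an AP-1 site (TGANTCA), a TEAD site (GGAATG), a homeodomain core (TAATTA) and a GLI site (GACCACCCA). No motif was held by more than 2 of the 5 promoters. TATAAA was found in Postn, 26 to 21 bases before the start, and in Tnc, 126 to 121 bases before it, and 12.4% of all 32851 promoter windows of this length hold it. The Npnt window had 3 GC boxes and a GC content of 74%, against 52.4% for the median window, and Tnc had 1 GC box with 44.8% GC. GC boxes were present in 32.7% of all windows. Sparc held 1 SMAD box, 35 to 31 bases before the start (42.2% of all windows), and Hmcn1 held 1 TEAD site, 242 to 237 bases before it (12.6%). The AP-1, homeodomain and GLI letters matched in none of the 5, and in 6.75%, 4.84% and 0.225% of all windows. These are matches of letters, and no binding was measured.

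In the fractions of 3C cultures, Sparc, Npnt, Postn and Tnc were higher in CD34+ than in CD34neg cells. This made 4 higher and 0 lower of the 7 genes tested, where 6.79% of 11370 tested loci were called and 2.08% were higher and 4.71% lower. Sparc was at 10.3 FPKM in CD34+ and 1.43 in CD34neg cells, a 7.24-fold difference (adjusted p = 0.00275 in the authors' deposited table), and ranked 19 from the top on the log2(FPKM + 1) scale. Npnt was at 6.40 and 2.205 FPKM, 2.90-fold higher (adjusted p = 0.00488 in the authors' deposited table). Postn was at 198 and 72.3 FPKM, 2.74-fold higher (adjusted p = 0.00275 there), and was the most abundant of the 10 genes in both fractions. Tnc was at 12.3 and 6.73 FPKM, 1.82-fold higher (adjusted p = 0.0454 in the authors' deposited table), close to the threshold.

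The remaining genes showed little or were too low to test in the fractions. Gas6 (10.6 and 8.90 FPKM), Gsn (9.20 and 8.19) and Mgp (3.04 and 2.79) did not pass, with adjusted p-values of 0.507, 0.700 and 0.929 in the authors' deposited table. Fn1 (1.33 and 0.0926 FPKM), Hmcn1 (1.09 and 0.342) and Aspn (0.10999 and 0.0345) were not tested by the authors. All 10 genes had the larger value in the CD34+ fraction, though for 6 of them that difference has no passing test.

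**Figure D2:**
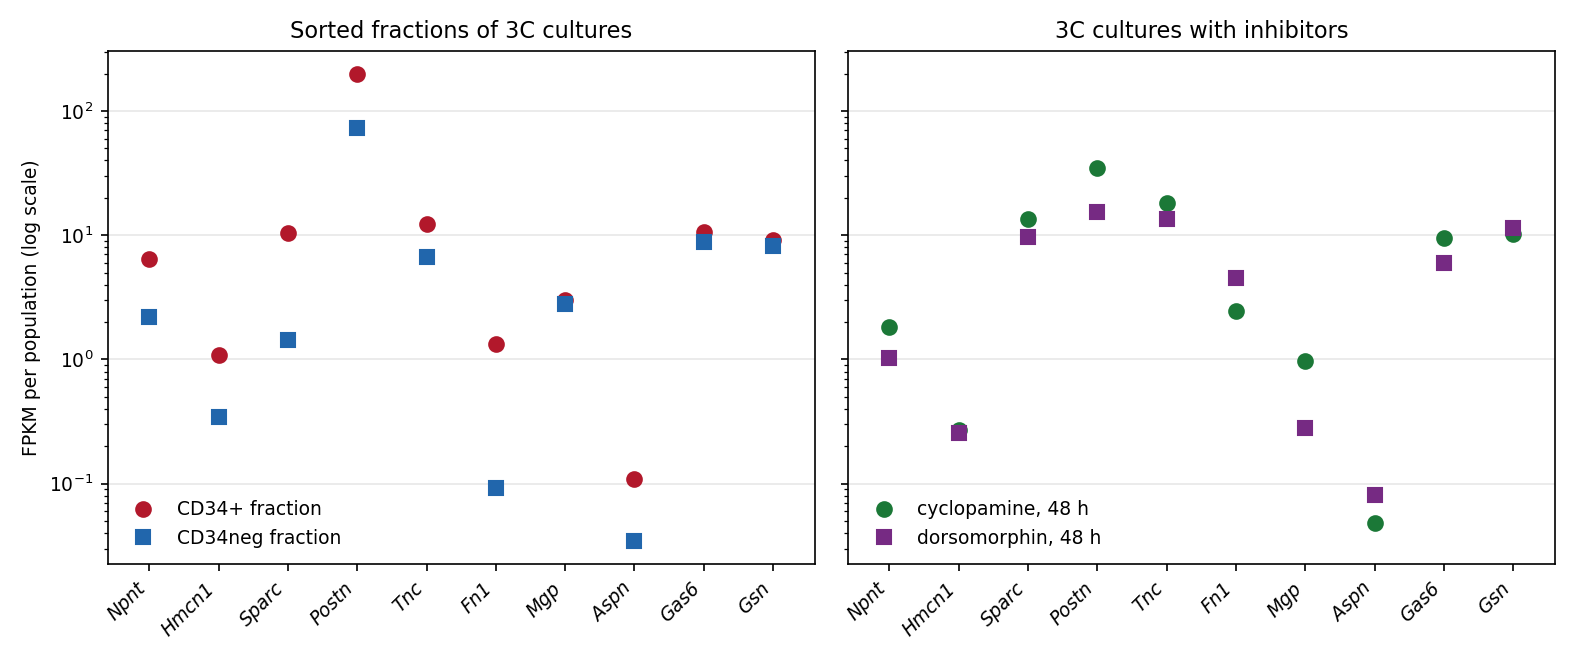
Level of each of the 10 genes in the fractions of 3C cultures (left, circles CD34+ and squares CD34neg) and in cultures given cyclopamine or dorsomorphin for 48 h (right, circles and squares), as FPKM on a log axis with 1 value per population. Postn is the highest gene in all 4 populations, at 198 and 72.3 FPKM on the left and 34.9 and 15.3 on the right, and the panels come from tables normalised separately.

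Between the inhibitors, Postn, Gas6 and Tnc were lower with dorsomorphin than with cyclopamine, 3 lower and 0 higher of the 7 genes tested, where 2.57% of 11505 tested loci were called and 1.31% were lower and 1.26% higher. Postn was at 15.3 FPKM with dorsomorphin and 34.9 with cyclopamine, 2.29-fold lower (adjusted p = 0.00479 in the authors' deposited table). It ranked 63 from the most negative difference of all tested loci. Gas6 was at 5.999 and 9.46 FPKM, 1.58-fold lower (adjusted p = 0.0227 in the authors' deposited table). Tnc was at 13.4 and 18.2 FPKM, 1.36-fold lower (adjusted p = 0.0428 in the authors' deposited table). There was no untreated culture in this comparison, so it does not show which inhibitor moved a gene.

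Fn1 was at 4.503 FPKM with dorsomorphin and 2.46 with cyclopamine, the opposite order, and did not pass (adjusted p = 0.265 in the authors' deposited table). Sparc (9.71 and 13.6 FPKM), Npnt (1.02 and 1.84) and Gsn (11.5 and 10.3) did not pass either, with adjusted p-values of 0.321, 0.387 and 0.813 in the authors' deposited table. Mgp (0.283 and 0.975), Hmcn1 (0.258 and 0.271) and Aspn (0.0819 and 0.0485) were not tested by the authors. Postn and Tnc were thus the genes called in all 5 comparisons, and Aspn was called in none.

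**Figure D3:**
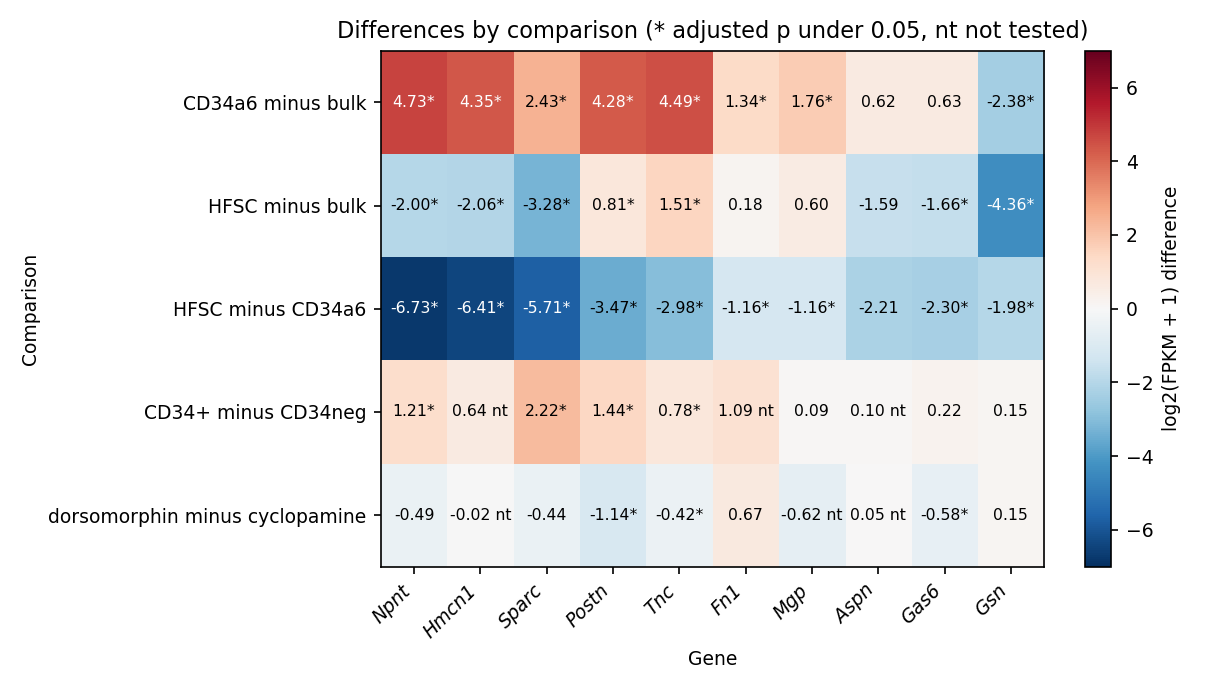
Difference of log2(FPKM + 1) for each of the 10 genes (columns) in the 5 comparisons (rows), the population named first minus the other, where red is higher, blue is lower, * marks an adjusted p under 0.05 and nt a gene not tested by the authors. The most negative values are those of Npnt (-6.73), Hmcn1 (-6.41) and Sparc (-5.71) in HFSC minus CD34a6.

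Markers of other cell types were measured beside these genes, since several of them are also fibroblast genes. In bulk RNA, fewer cells of a type and less RNA per cell cannot be told apart. Of 13 fibroblast and dermal markers, 5 were at 1 FPKM or more in CD34a6, 0 in HFSC and 4 in bulk, with summed levels of 41.1, 1.25 and 79.0 FPKM. The list did not move one way. Of 5 tested in CD34a6 against bulk, 2 were higher and 2 lower, where 22% and 24.3% of all tested loci were. CD34a6 had 22.4 FPKM of Col1a1 against 1.21 for bulk, 18.6-fold higher, and Col1a2 at 8.08 and 0.825, 9.79-fold higher. Vim (5.53 and 56.6 FPKM) and Thy1 (2.24 and 17.6) were lower in CD34a6 and made up most of the sum in bulk. Both collagens were thus higher in CD34a6, as 7 of the 10 genes were, and their part in those differences was not tested. In HFSC against CD34a6, Col1a1, Dcn and Vim were lower, 3 of 5 tested, where 29% of all tested loci were lower. Col3a1, Lum, Pdgfrb and Twist2 were listed at 0 in CD34a6 and the fibroblast receptor gene Pdgfra was at 0.0410. In the CD34+ and CD34neg fractions, where Postn was at 198 and 72.3 FPKM, no fibroblast marker reached 1 FPKM and the list summed to 1.66 and 1.28. In CD34+ cells Col3a1, Dcn, Lum, Pdgfrb, Thy1 and Twist2 were listed at 0. With cyclopamine and dorsomorphin the list summed to 19.1 and 31.9 FPKM, with 2 and 6 markers at 1 FPKM or more, and its 3 tested markers did not pass (1 at an unadjusted p under 0.05 in the authors' deposited table, the one source of tests here). Its part in the differences between the inhibitors was not tested.

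**Figure D4:**
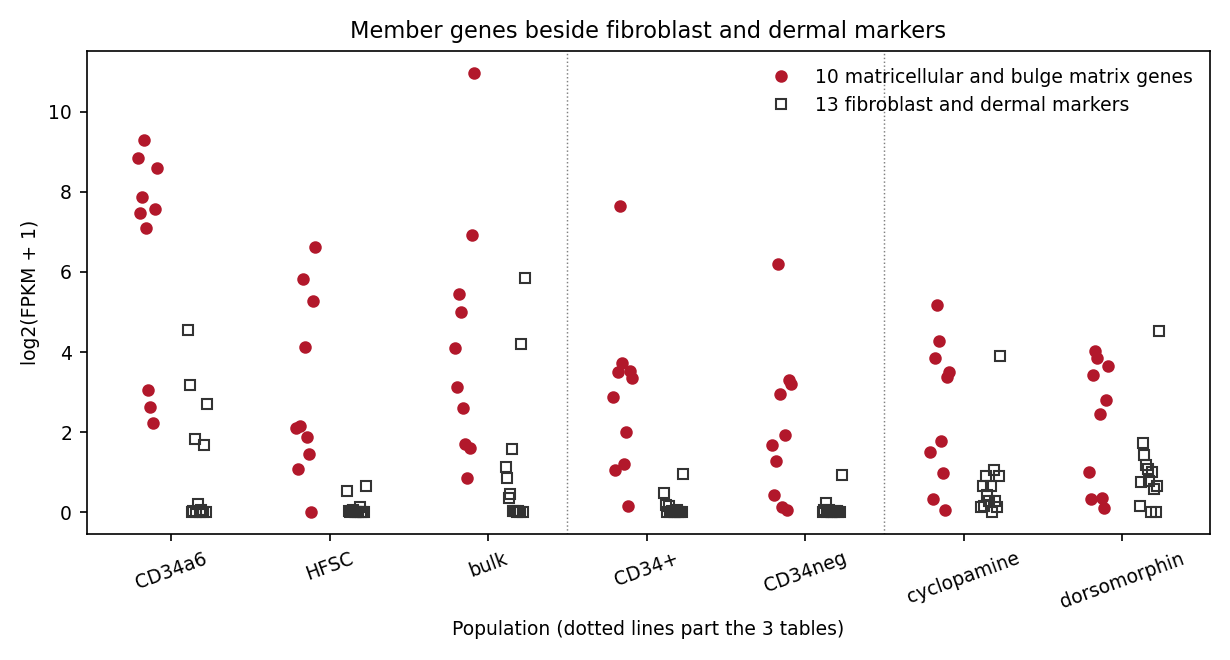
Level of the 10 genes (filled circles) and of 13 fibroblast and dermal markers (open squares) in the 7 populations, as log2(FPKM + 1), 1 point per gene, with dotted lines between the 3 separately normalised tables. In HFSC and in both sorted fractions every marker is under 1 FPKM, while Postn is at 55.7, 198 and 72.3 FPKM. In CD34a6, where Postn is at 627 FPKM, 5 markers are at 1 FPKM or more. The counts are 4 in bulk, 2 with cyclopamine and 6 with dorsomorphin.

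The other marker lists were as follows. All 7 immune markers were lower in CD34a6 than in bulk, where 24.3% of all tested loci were lower. Their sums were 5.44 and 324 FPKM, and HFSC had 1.32. The sums were under 2 FPKM in all 4 culture populations. The 8 endothelial and mural markers summed to 69.5, 68.9 and 6.21 FPKM in CD34a6, HFSC and bulk. Of these, Cspg4 was at 67.6 FPKM in CD34a6 and Acta2 at 62.1 in HFSC. Both were higher in CD34+ than in CD34neg cells (10.9 against 1.02 and 31.8 against 12.9). Between the inhibitors Acta2 was higher with dorsomorphin (6.95 against 3.14 FPKM) and Cspg4 lower (0.723 against 1.90). Cdh5 did not exceed 0.0858 in any population. Melanocyte markers summed to 22.3, 3.04 and 6.83 FPKM in CD34a6, HFSC and bulk, Schwann and nerve markers to 12.9, 0.361 and 3.24, dermal papilla markers to 10.2, 1.96 and 2.98, and muscle markers to 5.43, 10.6 and 38.0. In the cultures these 4 lists stayed between 0.140 and 3.65 FPKM. The part of these lists in the differences of the 10 genes was not tested.

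Genes related to this matrix were read from lists, also chosen with earlier results of these data known. Not all listed genes encode matrix proteins, and Grip1 in the basement membrane list, for example, does not. In CD34a6 against bulk 72.2% of the tested basement membrane genes, 80% of the elastic fibre genes and 69.2% of the other matricellular genes were called, against 46.3% of all tested loci. In the other 4 comparisons, in the order HFSC against bulk, HFSC against CD34a6, fractions and inhibitors, the shares were 66.7%, 94.7%, 22.2% and 11.1% for basement membrane genes. They were 50%, 66.7%, 16.7% and 0% for elastic fibre genes, and 42.9%, 78.6%, 12.5% and 44.4% for other matricellular genes. All tested loci had 43.7%, 54.2%, 6.79% and 2.57%, and with 6 to 9 tested genes in the last 2 comparisons 1 gene moves a share by over 10 percentage points. Basement membrane and follicle matrix genes were higher in CD34a6 than in bulk for 13 of 18 tested and lower for 0, with a median log2(FPKM + 1) difference of 1.56 against 0.00 for all tested loci. Vwa2, a basement membrane protein, was at 125 FPKM in CD34a6, 1.76 in HFSC and 8.50 in bulk. Egfl6, a secreted protein of the bulge basement membrane, was at 67.8, 0.0543 and 5.35, and Frem2, a Fraser complex protein of the epidermal basement membrane, at 81.7, 0.192 and 8.003 FPKM. All 3 had the order of Npnt, Hmcn1 and Sparc, and all their pairs passed. In HFSC against CD34a6, 13 of 19 in this list were lower and 5 higher, and in HFSC against bulk 6 of 15 were higher and 4 lower. Fbln2, a fibulin, was highest in HFSC at 75.3 FPKM, with 14.2 in CD34a6 and 1.58 in bulk. Nid1, the basement membrane linker nidogen, was at 12.8 FPKM in CD34+ and 3.76 in CD34neg cells and was called, with Matn2 as the other of 2 called of 9. With the inhibitors 1 of 9 was called, Ecm1, at 20.6 FPKM with dorsomorphin and 37.7 with cyclopamine.

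Elastic fibre genes were higher in CD34a6 than in bulk for 7 of 10 tested and lower for 1, with a median of 2.05. Ltbp2, a TGF-beta binding protein of microfibrils, was at 71.3 FPKM in CD34a6, 0.301 in HFSC and 2.38 in bulk. The other matricellular genes were less uniform, with 6 of 13 tested higher and 3 lower (median 0.17). Ctgf was at 96.6 FPKM in CD34a6, 9.65 in HFSC and 7.02 in bulk, while Thbs1, the matricellular protein thrombospondin 1, was at 5.35, 179 and 4.65. Thbs1 was also at 133 FPKM in CD34+ and 51.6 in CD34neg cells, and at 43.8 with dorsomorphin and 58.6 with cyclopamine, and those pairs passed. Thbs1 and Postn were both called higher in CD34+ cells and lower with dorsomorphin, while the Thbs1 difference between CD34a6 and bulk did not pass (adjusted p = 0.520 in the authors' deposited table). In HFSC against CD34a6 this list had 3 of 14 higher and 8 lower, and in HFSC against bulk 2 and 4 of 14. It had 1 higher and 0 lower of 8 in the fractions, and 2 and 2 of 9 with the inhibitors. Elastic fibre genes had 2 higher and 6 lower of 12, 3 and 2 of 10, 1 and 0 of 6, and 0 of 6 called in these 4 comparisons (0 of those 6 at an unadjusted p under 0.05 in the authors' deposited table). Of all tested loci, 25.2% were higher and 29% lower in HFSC against CD34a6, and 19% and 24.7% in HFSC against bulk. In the fractions they were 2.08% and 4.71%, with the inhibitors 1.26% and 1.31%, and in CD34a6 against bulk 22% and 24.3%.

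Receptor genes for some of the 10 proteins were read as well. Itga4, Itga9 and Itgb3 did not exceed 0.777 FPKM in any population and were not tested by the authors. Itga8, the partner subunit for Npnt, was at 0.551 FPKM in CD34a6, 2.24 in HFSC and 0.0945 in bulk, with all 3 pairs passing. In that table its highest level was in the population with the least Npnt. In the cultures Itga8 did not pass, at 10.4 FPKM in CD34+ and 6.44 in CD34neg cells, and 0.687 with dorsomorphin and 1.79 with cyclopamine. There its larger value was on the side with more Npnt. Itgb6, a subunit of a receptor for Tnc and Fn1, was at 104, 67.8 and 5.58 FPKM. The Gas6 receptors split by population. Mertk was at 24.1 FPKM in CD34a6, 0.348 in HFSC and 0.953 in bulk, Axl at 32.0, 134 and 45.4, and Tyro3 at 9.65, 18.8 and 40.7. Each of these was highest in another population, and Axl was also higher in CD34+ than in CD34neg cells (60.1 against 33.0 FPKM, adjusted p = 0.0384 in the authors' deposited table). Of the 12 receptor genes tested, 58.3% were called in CD34a6 against bulk, 75% in HFSC against bulk and 66.7% in HFSC against CD34a6, where 46.3%, 43.7% and 54.2% of all tested loci were. By direction, 6 were higher and 1 lower in CD34a6 against bulk, 6 and 3 in HFSC against bulk, and 5 and 3 in HFSC against CD34a6. Of 11 tested, 1 was higher and 0 lower in the fractions and also with the inhibitors. That is 9.09%, where 6.79% and 2.57% of all tested loci were called. With the inhibitors the called receptor was Itga5, a fibronectin receptor subunit, at 18.8 FPKM with dorsomorphin and 12.4 with cyclopamine.

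**Figure D5:**
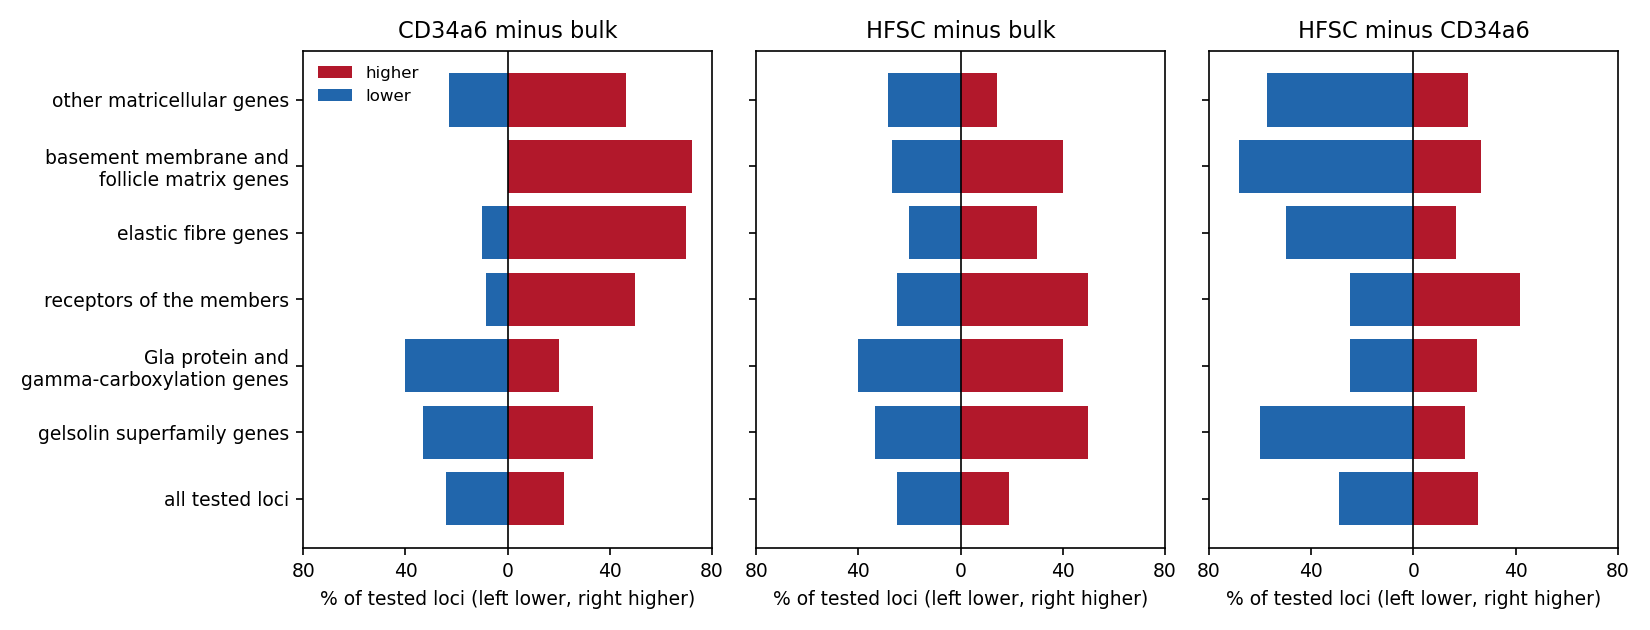
Share of the tested loci of each gene list called lower (blue, to the left) and higher (red, to the right) in the 3 pairs of the 3-population table, in percent, with all tested loci as the lowest bar. In CD34a6 minus bulk the basement membrane list has 13 of 18 higher and 0 lower, where 22% of all tested loci were higher and 24.3% lower.

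The genes most alike to these in pattern were sought over 4 differences (CD34a6 and HFSC against bulk, the fractions and the inhibitors) by Euclidean distance on the log2(FPKM + 1) scale, among 6828 loci with a single symbol that held 5 FPKM in a population of every table and were tested in each pair, predicted genes left out. The distance is a description with no test, and 5 of the 10 genes (Npnt, Fn1, Aspn, Mgp and Hmcn1) did not reach that level. The growth factor receptor gene Fgfr1 was nearest to both Postn (distance 0.730) and Tnc (0.623), followed by Dkk3 for Postn (0.920) and Bnc2 for Tnc (0.940). Gas6 was nearest to Vamp2 (0.497). The nearest gene to Sparc was Anpep at 1.70.

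On GRCm38 the deposited loci matched both ends of the annotated gene for Postn (chromosome 3, 54361109 to 54391037), Npnt (chromosome 3, 132881745 to 132950291) and Hmcn1 (chromosome 1, 150562524 to 150993435), counting from 1. Hmcn1 has 108 exon blocks with 21191 exonic bases in the annotation. Sparc was given chromosome 11, 55394500 to 55420080, Gas6 chromosome 8, 13465374 to 13494535, Gsn chromosome 2, 35279663 to 35307892, and Mgp chromosome 6, 136872436 to 136875805. The loci of Tnc (chromosome 4, 63959785 to 64149924), Fn1 (chromosome 1, 71585520 to 71662843) and Aspn (chromosome 13, 49464027 to 49652746) reach beyond the gene over neighbours. Exons of Tnc, Hmcn1 and Fn1 overlap those of genes on the opposite strand by 176, 399 and 292 bases, and Gas6 shares 34 exonic bases with Tmem255b, also on the opposite strand. The sources used here do not say whether counting used strand. The table's own values for these 4 overlapping genes did not exceed 0.157 FPKM in any population, and those values come from the same counting, so reads given to the wrong gene cannot be told apart. Aspn shares 7 exonic bases with Cenpp on the opposite strand, which was at 6.55 FPKM in CD34a6, 3.32 in HFSC and 3.15 in bulk, above Aspn in each.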

How the data were processed

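The 21 libraries were grouped by title. For the 9 libraries behind the 3-population table, the submitters' processing notes list, with no order or role, the aligner HISAT 0.1.6, the build GRCm38, Cufflinks 2.2.1 with Cuffdiff, and also StringTie 1.1.0 and FastQC 0.11.3. The labels of these libraries name a TopHat2 alignment. For the remaining 12 the authors used DESeq2 1.8.1, Subread 1.4.2 (featureCounts), TopHat2 2.0.13, cutadapt 1.5 and FastQC 0.11.2, per the submitters' processing notes. All tables have the Cuffdiff layout per the file headers, so the tool behind the p-values of the culture tables is not settled. FPKM was estimated by the authors per population. The p-values and q-values (adjusted p-values) are the authors' own, the lowest p-value being 5e-05. Applying Benjamini-Hochberg to the p-values of the tested loci of a table gave its q-values to within 5.3e-07. The log2 fold changes and the test statistic, a score, were deposited by the authors and served here only to find repeated lines.

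Here, repeated lines were merged, values were assigned by the population named on each line, and differences used log2(FPKM + 1), which understates folds of low genes. No value per library was analysed here, so no test was run and calls are the authors'. The functions were tested on simulated data (Python 3.11.15, pandas 2.3.3). Sequences and positions came from RefSeq and GENCODE M21. The members and lists were chosen with earlier results of these data known. Named beside the 10 genes are up to 4 called genes per list and comparison (the 2 largest differences on each side, at 5 FPKM or more), the nearest genes in pattern (not reported here for Gsn) and marker genes. Genes of the ontology set were named after their values were seen. Frem2, Itga8, Mertk, Axl, Tyro3, Itgb6, Ctgf, Thbs1, Fbln2, Vwa2, Egfl6 and Ltbp2 are given in all 3 populations once the rule named them in any, and Itga8 was chosen after its values were seen. The alternatives were other thresholds, adjustments, pseudocounts and scalings. The 6 gene lists and 8 marker lists were read in all 3 tables.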

Additional observations from a re-analysis of the deposited data

How the results depend on the processing

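No paired analysis was possible because the tables hold no value per library, and for the same reason leaving out each replicate was not run. The 31 calls of the 10 genes kept their direction under 5 other scales (pseudocounts of 0.1 and 0.01, the median of all loci subtracted, FPKM divided by its sum, and equal upper quartiles). Hmcn1, not tested between the inhibitors, went from -0.02 to 0.0046 with the median subtracted and to 0.0144 with FPKM divided by its sum. Dividing by the sum moved the median of all tested loci by 0.997 for CD34a6 against bulk, 0.770 for HFSC against bulk, -0.231 for HFSC against CD34a6, 0.377 for the fractions and 0.106 for the inhibitors, and equal upper quartiles by 0.118 for the fractions. The share of called loci that were higher in CD34a6 than in bulk went from 47.4% to 59.1% with that division. Subtracting the median moved HFSC against bulk by 0.108.

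With a Bonferroni adjustment 0 members passed in each of the 5 comparisons (8, 7, 9, 4 and 3 as reported), and no locus could, since the smallest deposited p-value times the number of tested loci gave 0.569 to 0.722. Between the inhibitors 1 member (Postn) was left of 3 at an adjusted p under 0.01, and 1 with a 2-fold minimum. The other 23 counts of members under an alternative stayed within 1.5 times the main count. Alternatives for the lists were added after the data were seen, and 48 counts stayed within 1.5 times while 12 did not. At an adjusted p under 0.01, the fractions had 1 basement membrane gene, 0 elastic fibre genes and 0 receptors, the inhibitors 0 basement membrane genes, and HFSC against CD34a6 had 1 Gla protein gene. With a 2-fold minimum the fractions had 1 basement membrane gene and 0 receptors, the inhibitors 1 other matricellular gene, 0 basement membrane genes and 0 receptors, and HFSC against CD34a6 1 Gla protein and 2 gelsolin superfamily genes.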

Other observations

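Genes related to Gas6, Mgp and Gsn by family did not share 1 direction. Of the gelsolin superfamily, Scin, which like gelsolin severs actin filaments, was at 9.04 FPKM in CD34a6, 5.11 in HFSC and 34.7 in bulk, the same order as Gsn, with all 3 pairs called. Capg, an actin-capping member, was at 111, 332 and 135 FPKM and was called higher in HFSC than in either. Of 6 tested members of that family, 2 were higher and 2 lower in CD34a6 against bulk and 3 and 2 in HFSC against bulk. In HFSC against CD34a6, 1 was higher and 3 lower of 5 tested. The called shares were 66.7%, 83.3% and 80%, where 46.3%, 43.7% and 54.2% of all tested loci were called. In the fractions 0 of 5 tested were called and with the inhibitors 0 of 4 (2 and 0 at an unadjusted p under 0.05 in the authors' deposited table). In the Gla protein and gamma-carboxylation list, Prrg4 was at 8.17 FPKM in CD34a6, 44.3 in HFSC and 16.6 in bulk, and Pros1, which encodes the Gas6 relative protein S, at 15.05, 10.55 and 25.5. That list had 1 higher and 2 lower of 5 in CD34a6 against bulk and 2 and 2 of 5 in HFSC against bulk. It had 1 and 1 of 4 in HFSC against CD34a6. Its called shares were 60%, 80% and 50%, beside 46.3%, 43.7% and 54.2% of all tested loci. In the other 2 comparisons 0 were called (5 and 4 tested), where 6.79% and 2.57% of all tested loci were. Of those tested, 0 and 0 had an unadjusted p under 0.05 in the authors' deposited table.

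A wider set was taken from the gene ontology column of the 3-population table, after the data were seen: 374 gene names annotated to the extracellular matrix, 8 of the 10 genes among them. In the fractions 14.8% of its 135 tested loci were higher in CD34+ cells and 2.96% lower, where 2.08% and 4.71% of all tested loci were. Bgn, the proteoglycan biglycan, had the largest difference of the set there, at 59.2 FPKM in CD34+ and 1.403 in CD34neg cells, followed by the glypican gene Gpc6 at 17.2 and 1.52. In CD34a6 against bulk 47.5% of 217 were higher and 23.5% lower, where 22% and 24.3% of all tested loci were. In HFSC against bulk they were 30% and 31.5% of 213, beside 19% and 24.7% of all tested loci. In HFSC against CD34a6 they were 29.6% and 51.1% of 223, beside 25.2% and 29%. The inhibitors had 7.75% and 8.45% of 142, beside 1.26% and 1.31%. Between the inhibitors, differences were ranked among called genes of the set at 5 FPKM or more, the 10 genes left out. Without an untreated culture they do not show which inhibitor moved a gene. Furthest below the cyclopamine level with dorsomorphin were Adamtsl5 (8.18 against 25.4 FPKM) and the metalloproteinase gene Adamts1 (18.8 against 41.3). Furthest above it were Serpine2 (18.0 against 8.55) and Igfbp7 (210.0 against 105).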
